A study of Mus musculus with 24 samples.

Results

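Interleukin-4 (IL-4) activation of WT bone marrow macrophages was compared with the unstimulated state on 8 of the 24 arrays of the series, 4 arrays of WT M2 and 4 of WT M0, chosen by their titles. M-CSF, the growth factor that drives macrophage differentiation, was present at 20 ng/ml over the 6 days of marrow culture. The cells were then left untreated (M0) or given 10 ng/ml IL-4 (M2), and both were taken at 24 h. The labels call WT either wild type or the Slc2a1 fl/fl floxed control, in which the glucose transporter gene Slc2a1 is flanked by loxP sites, and do not say which array held which. The other 16 arrays held WT M1 cells, given lipopolysaccharide (5 ng/ml) together with interferon-gamma (10 ng/ml), and M0, M1 and M2 cells of the Slc2a1M-/- knockout (KO). In the KO, LysM-Cre, which is active in myeloid cells, acts on the floxed Slc2a1 gene. The 4 arrays of a group are described as biological replicates. The labels name no age, sex or pooling of the mice, so the p-values measure the spread between arrays. That spread is pooled within the groups of all 24 arrays and is not that of the 8 compared arrays alone.

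IL-4 binds a receptor of the Il4ra chain with either the common gamma chain or Il13ra1. Janus kinases bound to the receptor then phosphorylate STAT6, which enters the nucleus and binds palindromic sites in the DNA. In macrophages this pathway is known for inducing arginase, chitinase-like and resistin-like proteins, lectins that bind mannose or galactose, and chemokines for T helper 2 cells and eosinophils, together called alternative activation. The inhibitors Socs1 and Cish are targets of the same pathway and dampen it.

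Levels are given as log2 of the processed intensity minus the log2 of the array's 75th percentile, so 0 is the 75th percentile of the array, and they are listed by replicate number. Differences are M2 minus M0 on this log2 scale, with the standard error of a limma fit over all 24 arrays and p-values adjusted by Benjamini-Hochberg over 25775 genes. A gene was called at an adjusted p under 0.05. A gene that was well above background on 0 of the 4 arrays of its lower group has only a bound, written as at least so many fold, which sets the brighter group against the dimmest signals still well above background on the arrays of the dimmer group. Levels are not compared between genes, because probes differ in brightness. The size of a difference from a dim group, bounds included, depends on the background correction. The alternative was normexp with an offset of 50 intensity units, which by itself shrinks such differences. The parts of the offset and of the correction were not separated. With normexp in place of the processed signal, the differences were 3.64 in place of 6.14 for Adipoq, 4.20 in place of 6.18 for Ccl17, 4.20 in place of 7.11 for Cdh1, 1.75 in place of 4.12 for Ccl22 and 4.39 in place of 7.14 for Edn1. Il31ra went from 8.10 to 6.07, Rasgrp1 from 6.58 to 5.09, Cldn11 from 6.40 to 4.94, Olr1 from 4.76 to 3.00, Msx3 from 7.43 to 4.57, Rbp4 from 6.29 to 3.61 and Ankrd55 from 6.70 to 3.88. Among the falls, Gpr82 went from -4.20 to -2.17, Dkk2 from -4.06 to -2.10, Icosl from -3.11 to -2.05, Itga8 from -3.85 to -2.48, Ifit3b from -3.87 to -2.82 and Adgre4 from -4.39 to -3.65. All of these genes were called under both.

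Some arrays stood apart from the others before any comparison was made. Each of 3 slides carried every group once and a further pair of arrays. The arrays that held every group once are called sets 1 to 3 here, each set on 1 slide. The further pairs, which include WT M0 replicate 2 and WT M2 replicate 4, are called set 4 here. These 2 arrays were on slides 1 and 3, so a difference within set 4 crosses slides. Ddx3y, Eif2s3y and Uty, which are Y-linked, were well above background on 0 of the 6 arrays of set 4 and on 18 of the 18 others, and Xist on 6 of 6 and 2 of 18. WT M0 replicate 2 was the highest of the M0 arrays for 37 of 38 interferon-stimulated genes and the lowest for 24 of 24 mitosis genes. WT M2 replicate 4 was the highest of the M2 arrays for 33 of 36 interferon-stimulated genes with 4 values and the lowest for 24 of 24 mitosis genes. WT M2 replicate 2 had 2005 spots carrying an outlier flag, against 89 to 190 on the other 7 arrays, and the highest 75th percentile, 4905 intensity units against 3113 to 3666. Between 60.4% and 65.4% of gene probes were well above background on the M0 arrays and between 54.0% and 60.8% on the M2 arrays.

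Of the 25775 genes tested, 3893 (15.1%) were called, 1615 (6.27%) higher and 2278 (8.84%) lower in M2. Thus 41.5% of the calls were rises. Scaling each array by its median in place of its 75th percentile gave 2565 higher and 1310 lower, or 66.2% rises, and moved the median difference of all genes from -0.09 to 0.06. The medians of 9 gene lists turned from below to above 0 with it, among them receptor and kinases, signal inhibitors, inflammatory cytokines, macrophage identity and mitosis, so that list medians between -0.14 and -0.02 below have no settled sign. At 2-fold or more, 707 genes were higher and 912 lower, but at 16-fold or more 89 were higher and 6 lower. The M2 arrays of 1675 genes all lay above the M0 arrays (6.5% of genes tested) and those of 2457 all lay below them (9.53%). With only these 8 arrays in the fit, limma called 2078 genes, 866 higher and 1212 lower. With the array set as a block it called 6461, 2473 higher and 3988 lower. Without WT M2 replicate 2, the count of falls went from 2278 to 1511, and without the 6 arrays of set 4 it was 3886.

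**Figure D1:**
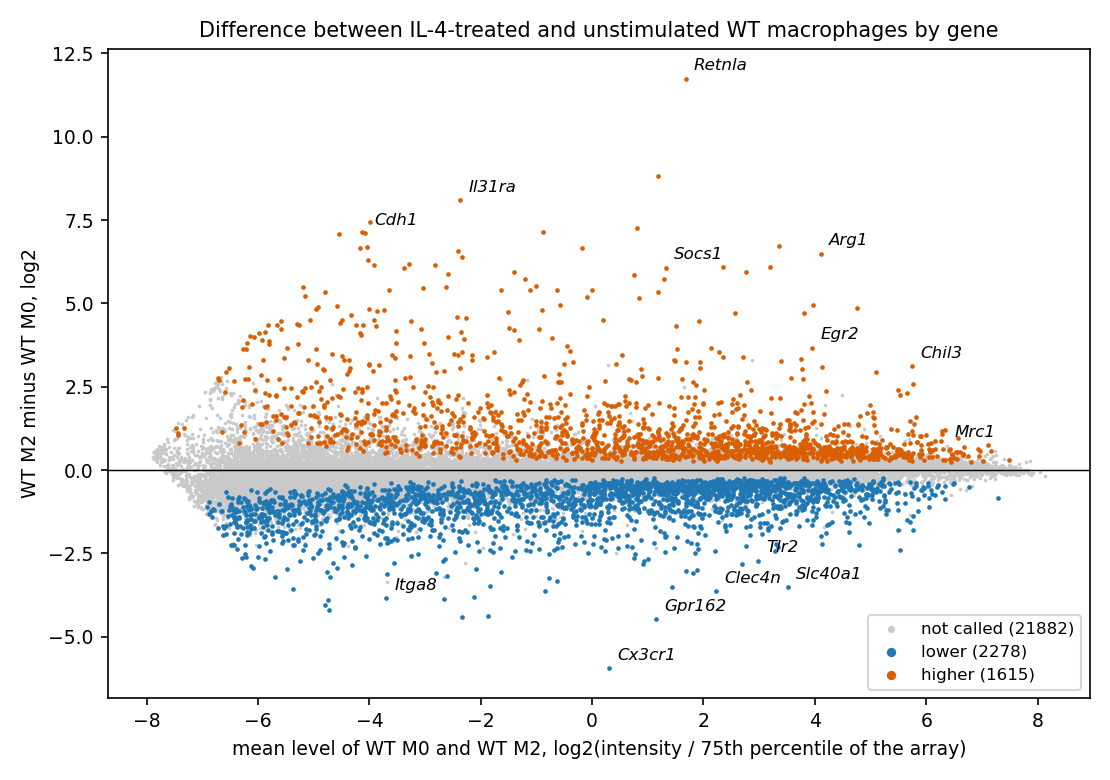
Difference of each of 25775 genes between WT M2 and WT M0 (log2, vertical axis) against its mean level over both groups (log2 relative to the 75th percentile of the array, horizontal axis). Each point is a gene, coloured by whether limma called it higher (1615), lower (2278) or not; rises reach 11.74 log2 units (Retnla) and falls 5.95 (Cx3cr1).

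Among the hallmark genes of alternative activation, Arg1, Retnla and Chil3 rose to above 7 log2 units over the 75th percentile, and others to lower levels. Arg1, the arginase that splits arginine into ornithine and urea, stood at 0.96, 0.68, 0.76 and 1.06 in M0 and at 7.54, 7.07, 7.62 and 7.18 in M2. The 2 groups did not overlap, and the difference was 6.49 ± 0.37, or 89.7-fold (limma adjusted p = 3.5e-10). Its probe lies on chromosome 10 at chr10:24636194-24636253 in mm9.

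Retnla, a secreted resistin-like protein, was at -8.14, -5.21, -4.37 and 0.97 in M0 and at 7.64, 7.42, 7.54 and 7.59 in M2. The M2 arrays lay close together (SD 0.10, n = 4) while the M0 arrays spread widely (SD 3.80, n = 4), and 3 of the 4 M0 arrays were well above background. The difference of 11.74 ± 1.41 (limma adjusted p = 7.2e-06) was the largest rise, and it ranged from 6.57 in one set of arrays to 15.78 in another. Its probe lies at chr16:48844447-48844506 in mm9.

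The chitinase-like proteins also rose. Chil3, known as Ym1, stood at 2.65, 5.09, 4.32 and 4.67 in M0 and at 7.31, 7.10, 7.47 and 7.33 in M2. It rose by 3.12 ± 0.78 (limma adjusted p = 0.0093), and the lowest of its M0 values was that of replicate 1. Chil4, or Ym2, was at -3.38, -1.31, -2.06 and -2.0 in M0 and at 3.16, 3.41, 3.62 and 4.51 in M2, a rise of 5.86 ± 0.77. Chil3 and Chil4 are near-identical genes, so that a probe may read both.

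Of the 38 effector genes tested, 22 were called higher (57.9%, against 6.27% of all genes) and 3 lower (7.89%, against 8.84%). Their median difference was 1.69, against -0.09 over all genes. Cdh1, the E-cadherin by which macrophages adhere and fuse, was well above background on 0 M0 arrays and reached -0.23, -0.40, 0.06 and -1.49 in M2, at least 87.7-fold higher (limma adjusted p = 1.1e-07). Flt1, a receptor for vascular endothelial growth factor, rose by 7.25 ± 0.43 over the 3 M2 arrays with a value. Pdcd1lg2, the ligand PD-L2 of the inhibitory receptor PD-1, was at -4.46, -4.12, -4.84 and -4.35 in M0 and at 1.4, 2.78 and 3.87 in M2, with no value for M2 replicate 2, a rise of 7.13 ± 0.49 (limma adjusted p = 1.5e-08). Tmem26, a membrane protein, rose by 6.66 ± 0.37 from values between -4.0 and -3.01 to values between 2.85 and 3.59. Gatm, which makes the creatine precursor guanidinoacetate from arginine, rose by 2.16 ± 0.22.

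The lectins differed in size of response. Clec10a, a galactose-binding lectin, went from 1.60, 3.03, 1.88 and 2.25 to 4.44, 4.98, 5.34 and 4.97, a rise of 2.75 ± 0.59 (limma adjusted p = 0.0027). Mgl2, its close relative, went from 4.30, 4.86, 4.35 and 4.50 to 6.86, 6.72, 7.07 and 6.57 on its brighter probe, a rise of 2.3 ± 0.24, whereas its dimmer probe gave 10.02. The mannose receptor Mrc1, a common marker of this state, was already at 5.59, 6.16, 6.12 and 6.13 in M0 and was at 6.61, 6.54, 6.76 and 7.01 in M2. All 4 M2 arrays lay above all 4 M0 arrays, yet the difference of 0.73 ± 0.43 did not pass the test (limma adjusted p = 0.29, and 0.0458 to 0.447 over the alternatives). Its standard error pools the spread of all 24 arrays, not of these 8 alone, and the alternative at 0.0458 called it. Tgm2, a transglutaminase used as a marker of this state, rose by 0.81 ± 0.25 from values between 3.09 and 3.63 to values between 4.00 and 4.45 (limma adjusted p = 0.03). That call was lost without M0 replicate 2 (0.70, limma adjusted p = 0.1), M0 replicate 4 (0.81, 0.062), M2 replicate 2 (0.83, 0.055), M2 replicate 3 (0.79, 0.067) or M2 replicate 4 (0.74, 0.0649), and without set 4 (0.63, 0.0649).

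The effector genes that fell were Stab1, Il10 and F13a1. Stab1, a scavenger receptor called stabilin-1, fell from 6.43, 6.76, 6.63 and 6.81 to 4.95, 4.47, 4.87 and 5.15, by 1.80 ± 0.17 log2 units (limma adjusted p = 2.6e-07). Il10, an anti-inflammatory cytokine, changed by -2.04 ± 0.49. F13a1, a clotting factor subunit often listed as an IL-4 target, changed by -3.00 ± 0.82 (limma adjusted p = 0.016), a call that was lost without M0 replicate 4 (-2.72, limma adjusted p = 0.055).

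**Figure D2:**
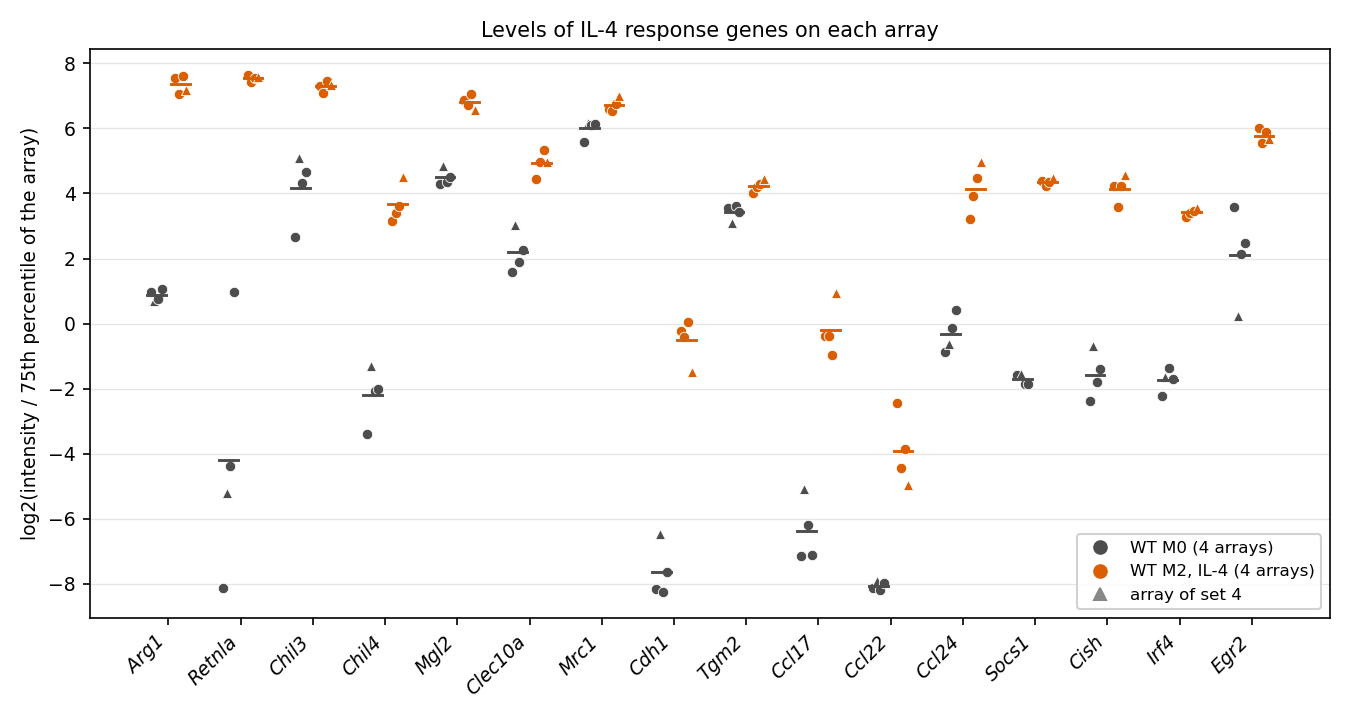
Level of 16 IL-4 response genes on each WT M0 array (grey) and each WT M2 array (orange), as log2 intensity relative to the 75th percentile of the array; horizontal lines are group means of the arrays with a value and triangles are the arrays of set 4. Arg1 lies between 0.68 and 1.06 in M0 and between 7.07 and 7.62 in M2, while Mrc1 is high in both groups.

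STAT6 dimers bind palindromes whose outer parts are TTC and GAA with a spacer of 4 bases, written TTCNNNNGAA, which reads the same on both strands. The windows from 250 bases before to 50 bases after the start of 14293 tested genes (RefSeq, GRCm38.p6) were searched for it. It was present in 7.12% of them, in 8.44% of 1055 genes called higher, in 5.31% of 1526 called lower and in 7.24% of those not called. Among the 59 genes with a window that rose at least 16-fold, 9 had it (15.3%), and 8 had the same palindrome with a 3-base spacer (13.6%). That second palindrome, TTCNNNGAA, was in 8.8% of all windows, 7.68% of those called higher and 8.39% of those called lower. The tandem GAAANNGAAA, read on both strands like the others and typical of interferon regulatory factor sites, was in 3.81% of all windows, 3.03% of those called higher, 4.98% of those called lower and 5.08% of the 59. The larger share among the 59 was thus not limited to the 4-base spacer. Of 34 named genes looked up, 27 had a window and 7 held the 4-base-spacer letters. They were Retnla, Edn1, Pdcd1lg2, Tmem26, Rbp4, Ccl17 and Apol7c. Stretches around the match are printed for 5 hallmark or strongly raised genes, 5′ to 3′ on the strand of the gene, with the matched letters in capitals. A match describes letters and is no evidence of binding.
Retnla: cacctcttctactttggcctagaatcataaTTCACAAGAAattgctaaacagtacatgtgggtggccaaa
Edn1: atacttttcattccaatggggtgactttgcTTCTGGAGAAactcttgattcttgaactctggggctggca
Pdcd1lg2: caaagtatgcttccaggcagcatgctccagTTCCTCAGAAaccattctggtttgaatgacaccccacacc
Tmem26: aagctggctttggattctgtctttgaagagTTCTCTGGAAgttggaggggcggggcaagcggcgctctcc
Ccl17: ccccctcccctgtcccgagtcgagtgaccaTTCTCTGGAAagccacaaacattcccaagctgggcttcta
The Retnla window is chr16:48842434-48842503 on the plus strand, with the match at bases -145 to -136 from the start. That of Edn1 is chr13:42301261-42301330 (plus strand, match at -185 to -176) and that of Pdcd1lg2 is chr19:29410807-29410876 (plus strand, match at -82 to -73). The Tmem26 window is chr10:68723675-68723744 (plus strand, match at -41 to -32), 1 of 2 matches in that gene, and that of Ccl17 is chr8:94810269-94810338 (plus strand, match at -154 to -145). The windows of Chil3, Chil4, Socs1, Cish, Irf4 and Mrc1 did not hold these letters.

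Components of the IL-4 receptor had no common direction. Of 15 receptor and kinase genes 2 were called higher (13.3%, against 6.27% of all genes) and 3 lower (20%, against 8.84%). Their median was -0.02. Stat6 itself was at 3.63, 3.34, 3.41 and 3.67 in M0 and at 3.50, 3.32, 3.67 and 3.50 in M2, a difference of -0.02 ± 0.10. Il13ra1, the chain shared with interleukin-13, fell from -0.02, 1.25, 0.26 and 0.54 to -1.68, -2.25, -2.22 and -1.39, by 2.39 ± 0.41 log2 units (limma adjusted p = 3.7e-04). Il4ra was at 3.41, 4.30, 3.80 and 3.76 in M0 and at 2.45, 2.81, 2.71 and 3.65 in M2 on its brighter probe, a difference of -0.91 ± 0.24 (limma adjusted p = 0.014), whereas its other probe gave 0.17. The groups overlapped, and the call was lost without M2 replicate 1 (-0.76, limma adjusted p = 0.0579) or M0 replicate 2 (-0.75, 0.0603). Jak2, a Janus kinase, rose from values between 0.65 and 1.33 to values between 2.16 and 3.13, by 1.5 ± 0.27. The count of receptor and kinase genes called lower went from 3 to 1 without M2 replicate 1 or M0 replicate 2.

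Among feedback inhibitors, Socs1, Cish and Socs2 rose, and Socs3 to Socs7 were not called. Of 20 signal inhibitors 5 were called higher (25%, against 6.27% of all genes) and 4 lower (20%, against 8.84%). Socs1, which binds and blocks Janus kinases, went from -1.59, -1.54, -1.86 and -1.86 to 4.39, 4.23, 4.34 and 4.49, a rise of 6.07 ± 0.26, or 67.3-fold (limma adjusted p = 1.2e-11). Cish, a related inhibitor of cytokine receptors, went from -2.38, -0.70, -1.81 and -1.39 to 4.24, 3.57, 4.23 and 4.56, a rise of 5.72 ± 0.41. Socs2 rose by 5.40 ± 0.28 on its brightest probe, and its 4 probes gave 2.29 to 5.40. In each of these 3 genes every M2 array lay far above every M0 array. The phosphatases Ptpn6 (SHP-1) and Inpp5d (SHIP-1) were lower, by -0.58 ± 0.11 and -0.78 ± 0.13. Ptpn2, a phosphatase of Janus kinases and STATs, rose by 0.83 ± 0.13. Without M0 replicate 3, 2 signal inhibitors in place of 4 were called lower.

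Among 34 transcription factors of the response 10 were called higher (29.4%, against 6.27% of all genes) and 4 lower (11.8%, against 8.84%). Their median was 0.42. Irf4, a factor that IL-4 signalling is known to induce, went from -2.22, -1.65, -1.35 and -1.69 to 3.29, 3.40, 3.45 and 3.54. Its rise of 5.15 ± 0.23 (limma adjusted p = 2.2e-11) was 2.73 on its other probe. Egr2, a zinc finger factor, went from 3.60, 0.23, 2.15 and 2.49 to 6.02, 5.55, 5.88 and 5.68, a rise of 3.67 ± 0.57, with the lowest M0 value on the set 4 array. Bhlhe40, which macrophages need to proliferate under IL-4, rose by 3.66 ± 0.40, Klf4 by 3.33 ± 0.50 and Ppargc1b, a coactivator of mitochondrial genes, by 3.26 ± 0.26. The differences of these 5 genes were above 0 in all 4 sets of arrays.

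The calls of Myc and Pparg lay near the threshold and were lost when single arrays were left out. Myc was at 0.69, -3.24, 0.08 and -0.38 in M0 and at 2.55, 2.25, 2.15 and 1.17 in M2, a difference of 2.74 ± 0.72 (limma adjusted p = 0.012). Without M0 replicate 2, its lowest array, the difference was 1.90 (limma adjusted p = 0.0505). Pparg, the lipid-sensing nuclear receptor, went from 3.80, 3.19, 4.03 and 4.32 to 4.70, 5.76 and 5.2 on the 3 M2 arrays with a value, a rise of 1.38 ± 0.42 (limma adjusted p = 0.03). Its call was lost without M0 replicate 1 (1.37, limma adjusted p = 0.0502), M0 replicate 2 (1.17, 0.0985), M2 replicate 3 (1.11, 0.143) or M2 replicate 4 (1.39, 0.056). It was also lost with the median over its probes (0.11, limma adjusted p = 0.945). Maf, a factor of tissue macrophages, fell from values between 4.50 and 5.73 to values between 2.63 and 3.79, by 1.89 ± 0.32 log2 units, and Bhlhe41 changed by -1.78 ± 0.35. With only the 8 arrays 6 of these factors were called higher and 2 lower, and 2 were called lower in place of 4 without M2 replicate 1, M0 replicate 2, M2 replicate 2 or M0 replicate 4.

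Of 14 CC chemokines 6 were called higher (42.9%, against 6.27% of all genes) and 1 lower (7.14%, against 8.84%), with a median of 1.5. Ccl24, or eotaxin-2, went from -0.88, -0.63, -0.15 and 0.42 to 3.23, 3.92, 4.49 and 4.96, a rise of 4.46 ± 0.43, or 22.0-fold (limma adjusted p = 3.8e-07). Ccl17, a ligand of Ccr4, was well above background on 1 of 4 M0 arrays, where it read -7.13, -5.07, -6.18 and -7.12, and stood at -0.38, -0.39, -0.97 and 0.95 in M2, a rise of 6.18 ± 0.61. Ccl22, the other ligand of Ccr4, was well above background on 0 M0 arrays and at -2.45, -4.45, -3.86 and -4.95 in M2, at least 8.98-fold higher (limma adjusted p = 5.7e-04). Ccl12, a monocyte chemokine, rose by 2.28 ± 0.33. The gene called lower was Ccl1, a ligand of Ccr8 (-0.86 ± 0.19), with 2 of 4 M2 arrays well above background, and its call was lost with normexp (-0.35, limma adjusted p = 0.0579).

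The monocyte chemokines Ccl2 and Ccl7 varied more within a group. Ccl2 was at 5.71, -1.44, 4.60 and 4.56 in M0 and at 7.08, 5.86, 6.08 and 3.41 in M2, and its difference of 2.25 ± 1.17 did not pass the test (limma adjusted p = 0.22). Ccl7 was at 3.62, -3.57, 2.42 and 2.37 in M0 and at 5.84, 4.49, 5.35 and 2.42 in M2, with a difference of 3.31 ± 1.18 (limma adjusted p = 0.065). The lowest array of each group, for both genes, belonged to set 4. Of 12 CXC chemokines 1 was called higher (8.33%, against 6.27% of all genes) and 1 lower (8.33%, against 8.84%). Cxcl9, an interferon-induced ligand of Cxcr3, differed by 4.81 ± 1.27 with 1 of 4 M0 arrays well above background (limma adjusted p = 0.013), a call that was lost without M0 replicate 3 (4.06, 0.0537) and with normexp (2.77, 0.0516). Cxcl16, a chemokine also made as a membrane protein, was the one called lower (-1.03 ± 0.28), a call that was lost without M2 replicate 1 (-0.86, limma adjusted p = 0.0619), M0 replicate 2 (-0.90, 0.0584) or M2 replicate 3 (-0.92, 0.0537). Cxcl1 and Cxcl2, which attract neutrophils, had values of -3.35 ± 1.2 and -2.78 ± 1.04 that did not pass the test (limma adjusted p = 0.067 and 0.081).

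Receptors for chemoattractants included the largest fall. Cx3cr1, the fractalkine receptor of monocytes and macrophages, went from 3.63, 1.64, 3.99 and 3.84 to -2.31, -2.16, -1.69 and -4.55, a fall of 5.95 log2 units (SE 0.74), or 61.9-fold (limma adjusted p = 1.0e-05). The lowest array of each group was the set 4 array, and the difference lay between -6.19 and -5.53 in all 4 sets. C5ar1, the receptor of complement fragment C5a, fell from values between 4.03 and 4.53 to values between 2.22 and 3.02, by 1.74 ± 0.18. Cxcr4 changed by -1.31 ± 0.25. Of 14 such receptors 4 were called lower (28.6%, against 8.84% of all genes) and 1 higher (7.14%, against 6.27%).

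The other large falls were in genes of several kinds. Gpr162, an orphan receptor, went from 2.66, 4.02, 3.03 and 3.83 to -2.03, -1.29, -0.96 and -0.07 (-4.47 ± 0.43). Fcrl1, an Fc receptor-like protein best known from B cells, went from 0.33, -0.26, -0.49 and -0.11 to -4.17, -4.58, -4.66 and -4.74 (-4.41 ± 0.24, limma adjusted p = 1.7e-10). P2ry13, a receptor for ADP, changed by -3.80 ± 0.32, Itga8, an integrin chain, by -3.85 ± 0.53, and Adgre4, a macrophage adhesion receptor, by -4.39 ± 0.76. Gpr82, an orphan receptor, was at least 15.6-fold lower and Dkk2, a secreted Wnt inhibitor, at least 15.1-fold lower, each on 4 of 4 M0 arrays and 0 of 4 M2 arrays well above background. Nfkbiz, an inducible NF-kappa-B cofactor, changed by -3.64 ± 0.30, with all 4 sets between -3.84 and -3.51. Ifit3b changed by -3.87 ± 1.02, a call that was lost without M0 replicate 2 (-3.08, limma adjusted p = 0.0586) or M2 replicate 3 (-3.00, 0.058).

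Receptors that recognise microbial products were often called lower. Of 24 pattern recognition receptors 10 were called lower (41.7%, against 8.84% of all genes) and 1 higher (4.17%, against 6.27%), with a median of -0.69. Tlr2, the receptor for bacterial lipoproteins, went from 3.75, 4.65, 4.39 and 4.59 to 1.18, 1.66, 1.62 and 2.03, a fall of 2.72 log2 units (SE 0.26, limma adjusted p = 3.4e-07). Cd14, the co-receptor for lipopolysaccharide, went from 6.08, 5.8, 5.92 and 5.85 to 3.54, 3.76, 3.54 and 3.86 (-2.24 ± 0.34). Clec4n (dectin-2) changed by -3.63 ± 0.49, Clec4e (mincle) by -2.53 ± 0.40 and Clec4d by -2.39 ± 0.15. No array of either group overlapped the other in these 5 genes. Clec7a (dectin-1), the receptor for beta-glucan, was the member that rose, from 5.74, 5.72, 5.63 and 5.67 to 6.97, 6.70, 6.93 and 6.87 (1.18 ± 0.09).

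Of 28 inflammatory cytokines and mediators 2 were called higher (7.14%, against 6.27% of all genes) and 5 lower (17.9%, against 8.84%), with a median of -0.09, and 3 were called lower without any of M0 replicates 1, 3 and 4, M2 replicate 2 or M2 replicate 3. Il18 changed by -1.06 ± 0.24 and Il15 by -1.11 ± 0.28. Il27 rose by 0.82 ± 0.19. Il1b was at -1.86, 0.89, -0.60 and -1.59 in M0 and at -2.36, -4.14 and -2.87 in M2, and its difference of -2.33 ± 1.09 did not pass the test.

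Interferon-stimulated genes were lower in M2 on the median, and how many passed the test varied with the arrays used. Of 38 tested 7 were called lower (18.4%, against 8.84%) and 0 higher, with a median of -0.61. Oas2, a sensor enzyme for double-stranded RNA, went from 3.27, 4.97, 4.13 and 4.05 to 0.84, 0.69, 0.68 and 2.90, a difference of -2.83 ± 0.58 (limma adjusted p = 0.0018). Rtp4 went from 3.48, 5.55, 4.66 and 4.26 to 1.78, 1.68, 1.14 and 3.64 (-2.43 ± 0.59). Irf7, a factor that amplifies the interferon response, was at 3.76, 7.33, 4.81 and 4.11 in M0 and at 2.76, 2.73, 2.19 and 5.54 in M2 (-1.70 ± 0.91), and Ifit3 differed by -2.49 ± 0.85 (limma adjusted p = 0.055). Neither passed the test. In these 4 genes the highest array of each group was that of set 4.

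The median of this list within a set was -0.21, -0.72, -0.66 and -0.87 in sets 1 to 4. Without the 6 arrays of set 4, 18 of 38 were called lower. The count was 11 without M0 replicate 1 or M2 replicate 4 alone, and 4 without M2 replicate 1, M0 replicate 2, M0 replicate 3, M2 replicate 2 or M2 replicate 3. It was 4 with median scaling and 3 with only the 8 arrays. The summed level of the list ranged from 8.24 to 9.58 over the M0 arrays and from 7.85 to 8.68 over the M2 arrays.

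**Figure D3:**
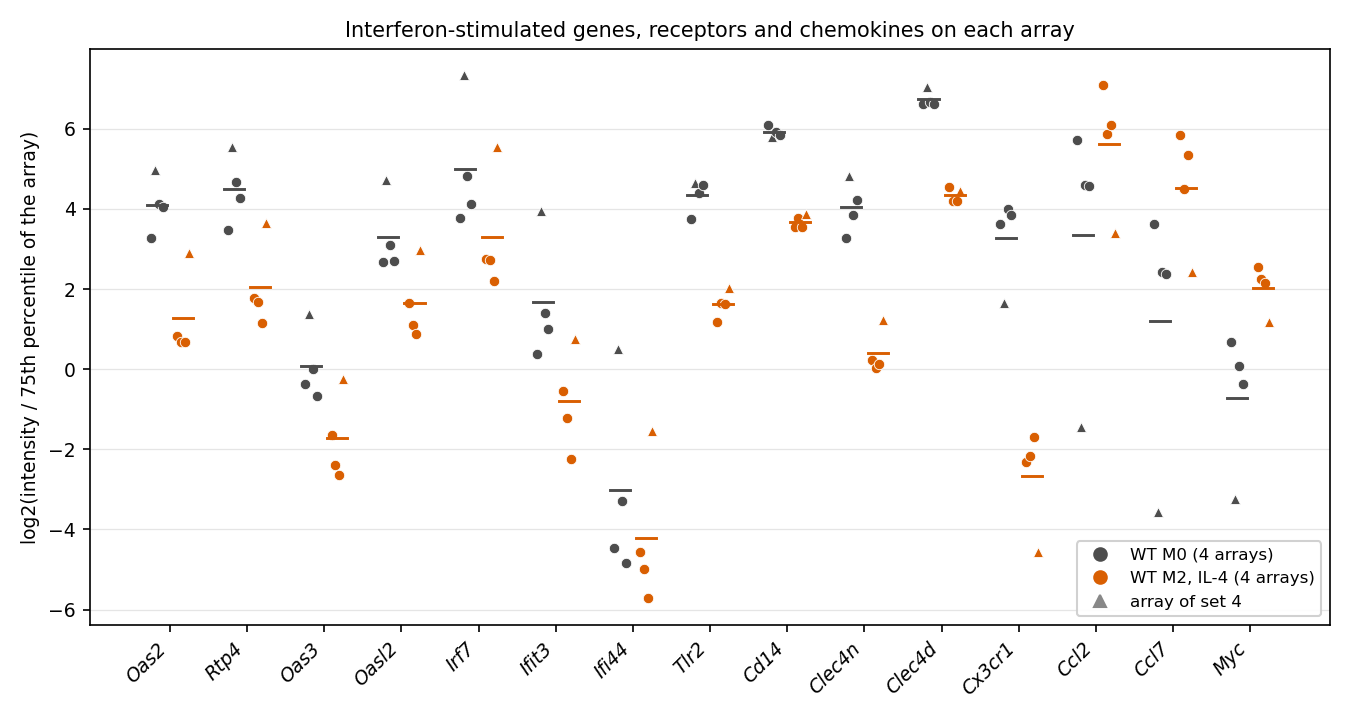
Level of 7 interferon-stimulated genes, 5 surface receptors, 2 chemokines and Myc on each WT M0 (grey) and WT M2 (orange) array, as log2 intensity relative to the 75th percentile of the array; horizontal lines are group means and triangles are the arrays of set 4. The set 4 array is the highest of its group for Oas2, Rtp4 and Irf7 and the lowest for Ccl2, Ccl7 and Myc, whereas Tlr2 and Cd14 differ between the groups by more than the spread within them.

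Of 20 genes of MHC class II and co-stimulation 10 were called higher (50%, against 6.27% of all genes), 1 lower (5%, against 8.84%) and 9 not called, with a median of 1.22. Ciita, the master regulator of class II genes, went from 0.17, 1.57, 0.49 and 0.16 to 2.51, 3.13, 3.29 and 3.65, a rise of 2.55 ± 0.36 (limma adjusted p = 4.3e-05). Cd74, the invariant chain, went from 4.44, 5.65, 3.98 and 3.53 to 6.41, 6.39, 6.50 and 7.25 (2.24 ± 0.40). H2-DMa, which loads peptides, rose by 2.25 ± 0.24, and the class II chains H2-Aa and H2-Ab1 by 1.69 ± 0.43 and 1.57 ± 0.42. For Ciita and Cd74 the set 4 array was the highest of both groups. The co-stimulator Cd40 rose by 1.74 ± 0.24 and Cd274, or PD-L1, by 1.23 ± 0.23. Icosl, the ligand of the T cell receptor ICOS, fell from -2.29, -2.23, -2.0 and -1.98 to -5.69, -5.06, -5.61 and -4.58 (-3.11 ± 0.22). Of 15 class I genes 5 were called higher (33.3%, against 6.27% of all genes) and 0 lower (against 8.84%). With only the 8 arrays, 1 was called higher. Psmb10, an immunoproteasome subunit, rose by 1.02 ± 0.13. Calr, a chaperone of class I assembly, rose by 1.04 ± 0.20, a call that was lost with only the 8 arrays.

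Transcripts of other genes that handle arginine were also called beside Arg1. Of 23 arginine and polyamine genes 7 were called higher (30.4%, against 6.27% of all genes) and 1 lower (4.35%, against 8.84%). Their median was 0.37. Slc7a2, the arginine transporter, went from -3.58, -2.31, -4.05 and -3.35 to 2.24, 1.41, 2.02 and 2.63, a rise of 5.40 ± 0.39, or 42.1-fold (limma adjusted p = 7.4e-09). Ass1, which regenerates arginine from citrulline, rose by 1.59 ± 0.30. Nos2, the enzyme that makes nitric oxide from arginine and is a marker of M1, went from -2.01, -2.63, -2.43 and -2.09 to -0.96, -0.13, -0.73 and 1.14 (2.12 ± 0.45). In M1 it stood at 7.88 ± 0.23 (SD, n = 4). Smox, which oxidises spermine, changed by -1.14 ± 0.29, and Odc1, the first enzyme of polyamine synthesis, differed by 0.52 ± 0.27 and did not pass the test.

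Genes of cell fusion and of osteoclasts included further rises. Of 30 tested, 8 were called higher (26.7%, against 6.27% of all genes) and 1 lower (3.33%, against 8.84%). Ocstamp, a membrane protein needed for fusion, went from -2.36, -3.33, -2.91 and -3.58 to 3.77, 1.73, 1.75 and 0.36 (4.95 ± 0.58, limma adjusted p = 6.0e-06). Its partner Dcstamp was at 2.33, -1.69, 0.75 and 0.20 in M0 and at 4.09, 2.83, 2.75 and 1.88 in M2, and the difference of 2.49 ± 0.93 did not pass the test (limma adjusted p = 0.079). Itgb3, the beta chain of the vitronectin receptor, rose by 3.40 ± 0.31 and Atp6v0d2, a proton pump subunit, by 1.34 ± 0.23. Nfatc1, the master factor of osteoclasts, changed by -0.81 ± 0.16.

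Metabolic lists moved by smaller amounts. Of 30 genes of the tricarboxylic acid cycle 12 were called higher (40%, against 6.27% of all genes) and 0 lower (against 8.84%). The median was 0.30, with 26 of 30 differences above 0. Idh3a, a subunit of the NAD-dependent isocitrate dehydrogenase, went from 2.53, 1.13, 2.03 and 1.76 to 3.37, 3.11, 3.27 and 2.79 (1.27 ± 0.29). Sdha, a subunit of succinate dehydrogenase, rose by 0.56 ± 0.10. With only the 8 arrays 5 of the 30 were called. Of 24 genes of fatty acid oxidation 4 were called higher (16.7%, against 6.27% of all genes) and 0 lower. Hadha and Hadhb, the chains of the mitochondrial trifunctional protein, rose by 0.64 ± 0.11 and 0.62 ± 0.13. Cpt1a, which admits fatty acids to mitochondria, differed by -0.28 ± 0.11 and did not pass the test. The count of fatty acid oxidation genes was 8 with median scaling.

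Of 24 genes of cholesterol synthesis and uptake 13 were called higher (54.2%, against 6.27% of all genes), 0 lower and 11 not called, with a median of 0.63 and 23 of 24 differences above 0. Mvd, an enzyme of the mevalonate pathway, went from 0.79, 1.16, 0.61 and 0.65 to 1.87, 1.72, 2.09 and 2.42 (1.22 ± 0.19, limma adjusted p = 1.3e-04). Idi1 rose by 1.01 ± 0.19 and Cyp51 by 1.09 ± 0.23. M0 replicate 2 was the lowest M0 array for 17 of the 24 genes, and the median over the list was 0.45, 0.32, 0.66 and 0.92 in sets 1 to 4. With only the 8 arrays 8 were called higher. Among targets of the oxysterol receptor LXR and genes of fatty acid synthesis, 5 of 20 were called higher and 4 lower. These are 25% and 20%, against 6.27% and 8.84% of all genes. Abcg1, a cholesterol exporter, rose by 1.38 ± 0.20 and the desaturase Scd2 by 1.75 ± 0.41, whereas Apoc2, an activator of lipoprotein lipase, changed by -2.23 ± 0.33. The 4 falls were 2 without M2 replicate 1, M0 replicate 2, M0 replicate 3, M0 replicate 4 or M2 replicate 3.

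Glycolysis had no common direction. Of 28 genes 5 were called higher (17.9%, against 6.27% of all genes) and 4 lower (14.3%, against 8.84%), with a median of 0.10. Slc16a1, a lactate and pyruvate transporter, went from 1.38, 0.72, 0.94 and 1.04 to 2.65, 2.94, 2.96 and 2.56 (1.76 ± 0.17, limma adjusted p = 4.6e-07). Pfkp, an isoform of phosphofructokinase, rose by 1.42 ± 0.22, and Ldha, a lactate dehydrogenase chain, differed by 0.19 ± 0.11 and did not pass the test. With median scaling 8 were called higher and 0 lower. The 4 falls became 2 without M2 replicate 1, M0 replicate 2 or M0 replicate 4, and 1 without M2 replicate 2.

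Slc2a1, the transporter that the KO is to lack, was at 3.76, 2.06, 2.67 and 2.72 in WT M0 and at 4.37, 3.03, 3.30 and 2.91 in WT M2. The groups overlapped, and the difference of 0.60 ± 0.35 did not pass the test (limma adjusted p = 0.28, and 0.0286 to 0.662 over the alternatives). Within the 4 sets of arrays it was 0.62, 0.36, 0.58 and 0.85, and the fit with the array set as a block, the alternative at 0.0286, called it. Of 9 glucose transporters tested 2 were called higher (22.2%, against 6.27% of all genes) and 2 lower (22.2%, against 8.84%). Slc2a6, a lysosomal member of the family, went from 2.85, 2.2, 2.92 and 3.16 to 4.26, 4.22, 4.57 and 4.14 (1.51 ± 0.24). The other rise was Slc2a4, the insulin-responsive GLUT4, which was well above background on 0 of 4 M0 arrays.

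Scavenger and Fc receptors split. Of 27 scavenger and efferocytosis receptors 2 were called higher (7.41%, against 6.27% of all genes) and 6 lower (22.2%, against 8.84%). Itgax, the integrin CD11c, went from 4.97, 4.62, 4.37 and 3.97 to 7.20, 6.92 and 7.03 on 3 M2 arrays (2.57 ± 0.22), and Olr1, a receptor for oxidised lipoprotein, rose by 4.76 ± 0.56. Gas6, a bridge to apoptotic cells, fell from values between 6.01 and 6.65 to values between 4.17 and 5.29 (-1.5 ± 0.28), and Clec12a changed by -1.22 ± 0.21. Of 11 Fc receptors, Fcgr2b, the inhibitory receptor, rose by 1.74 ± 0.37 and Fcgr1, the high-affinity receptor, changed by -1.70 ± 0.41. Fcgr1 was at 3.36 on M2 replicate 4 and between 1.72 and 1.80 on the other M2 arrays.

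Of 17 genes of iron handling 3 were called higher (17.6%, against 6.27% of all genes) and 4 lower (23.5%, against 8.84%). The count lower was 2 without M2 replicate 2 or M0 replicate 4. Tfrc, the transferrin receptor that takes iron up, went from 2.45, 3.20, 2.11 and 1.94 to 4.72, 4.89, 5.21 and 5.75 (2.72 ± 0.29, limma adjusted p = 1.3e-06). Slc40a1, or ferroportin, the exporter, went from 4.37, 5.82, 5.31 and 5.58 to 0.81, 1.91, 1.68 and 2.62 (-3.51 ± 0.42, limma adjusted p = 6.7e-06), and its other probe gave -4.50. Neither gene's groups overlapped. Slc11a1, a metal transporter of phagosomes, changed by -0.98 ± 0.15.

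Of 33 matrix and growth factor genes 5 were called higher (15.2%, against 6.27% of all genes) and 2 lower (6.06%, against 8.84%), and 2 were called higher with only the 8 arrays. Fn1, fibronectin, went from 1.01, 1.46, 2.08 and 1.38 to 5.62, 6.71 and 7.0 on 3 M2 arrays (4.96 ± 0.66), and its 4 probes gave 4.96 to 6.68. Hbegf, a ligand of the epidermal growth factor receptor, rose by 3.24 ± 0.72, Timp1, an inhibitor of metalloproteinases, by 2.01 ± 0.33 and Igf1 by 0.48 ± 0.12. Outside this list, Edn1, the precursor of endothelin, was well above background on 0 M0 arrays. It stood at 1.91, -0.56, -0.57 and -3.03 in M2, at least 84.3-fold higher. In the eicosanoid list, Ptgs1, the constitutive cyclooxygenase, rose by 1.39 ± 0.28 and Ptges2 by 1.06 ± 0.13, whereas Hpgds, which makes prostaglandin D2, fell from values between 2.41 and 2.63 to values between -0.14 and 0.38 (-2.46 ± 0.17).

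Further large rises fell outside the lists. Il31ra, a chain of the interleukin-31 receptor, read -5.83, -7.90, -6.50 and -5.46 in M0, where 2 of 4 arrays were well above background, and 1.70, 1.62, 1.75 and 1.63 in M2 (8.10 ± 0.40). Msx3, a homeobox factor, was at least 106-fold higher, and Ankrd55, a protein of ankyrin repeats, at least 72-fold on its brightest probe, while its 3 probes gave 1.49 to 6.70. Rbp4, the retinol carrier of plasma, was at least 57.7-fold higher. Rasgrp1, an activator of Ras, rose by 6.58 ± 0.40 with 2 of 4 M0 arrays well above background, and by 2.66 on its other probe. Cldn11, a tight junction protein, rose by 6.40 ± 0.45, and Adipoq, the hormone adiponectin, by 6.14 ± 0.76 with 1 of 4 M0 arrays well above background.

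The cells are labelled macrophages. All 21 macrophage identity genes tested were well above background on 4 of 4 arrays in both groups. Adgre1 (F4/80) was between 6.99 and 7.12 in M0 and between 6.69 and 7.07 in M2, and Csf1r, the receptor of M-CSF, between 7.21 and 7.39 and between 7.09 and 7.4, and neither difference passed the test (-0.15 ± 0.11 and -0.05 ± 0.12). Of the 21 genes 6 were called lower (28.6%, against 8.84% of all genes) and 1 higher (4.76%). Beside Cx3cr1, Maf and Fcgr1, described above, the falls included Mpeg1, a pore-forming protein of phagosomes (-0.83 ± 0.17), and Cd33 (-1.60 ± 0.36). With only the 8 arrays 3 were called lower.

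Markers of other cells were measured beside these results. Presence on the arrays does not tell the macrophage list from others, since all 15 neutrophil markers tested were also well above background on every array of both groups, their summed level ranged from 7.50 to 8.45 in M0 and from 7.30 to 8.08 in M2, and 0 were called, with 2 of 15 differences above 0. Of the dendritic cell markers 2 of 11 were called higher (18.2%, against 6.27% of all genes), Batf3 and Zbtb46. Clec9a and Btla were not well above background on any of the 8 arrays. Batf3 was at 4.54, -0.38, 4.70 and 4.38 in M2, with the low value on M2 replicate 2, and between -0.26 and 0.57 in M0. Of 9 mast cell markers and 11 lymphocyte markers 0 were called, and summed levels ranged from 0.50 to 1.29 and 2.31 to 3.24 in M0 and from 0.03 to 0.24 and 1.93 to 2.86 in M2. Of 11 fibroblast markers 1 was called higher (Postn, 3.07 ± 0.55) and 1 lower, 9.09% each, against 6.27% and 8.84% of all genes. Their summed level was 4.34 to 5.45 in M0 and 4.68 to 5.40 in M2. In RNA of whole cultures, fewer cells of a type and less RNA per cell cannot be told apart, and the part of other cells in the differences was not tested.

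The eosinophil-associated ribonucleases Ear1, Ear2 and Rnase2a rose. Ear1 went from -1.58, 1.34, 0.59 and 0.48 to 2.76, 5.45, 5.36 and 6.10 (4.71 ± 1.00), Ear2 from -0.23, 2.65, 1.73 and 1.70 to 4.20, 6.58, 6.67 and 7.20 (4.70 ± 0.94), and Rnase2a rose by 6.73 ± 0.93 over 3 M2 arrays. Replicate 1 was the lowest array in both groups for each of the 3. These genes are near-identical copies, so that their probes may read more than 1 of them. Siglecf, a surface receptor of eosinophils and some macrophages, differed by 0.99 ± 0.27 (limma adjusted p = 0.0172), a call that was lost without M0 replicate 4 (0.79, 0.0754) or M2 replicate 4 (0.76, 0.0574). Epx and Prg2, which encode eosinophil granule proteins, did not pass the test, with differences of 0.20 ± 1.42 and -0.37 ± 1.22. Prg2 was at -0.42, 2.63, 2.24 and 2.21 in M0 and at -0.42, 2.08, 1.78 and 1.73 in M2. The summed level of the 8 eosinophil markers, Ear1 included, ranged from 1.87 to 3.50 in M0 and from 3.53 to 6.38 in M2. Ear1 and Siglecf were the 2 of the 8 called higher (25%, against 6.27% of all genes). The part of eosinophils in these values was not tested.

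Genes of mitosis and DNA replication did not pass the test, whereas a few cyclin and inhibitor genes did. Of 24 mitosis genes and 30 DNA replication genes 0 were called in either direction by limma. Their median differences were -0.08 and 0.33, with 3 of 24 and 26 of 30 differences above 0. In sets 1 to 4 the medians were -0.21, -0.31, -0.19 and 0.34 for mitosis and 0.19, 0.09, 0.57 and 0.49 for DNA replication. Mki67 was at 5.59, 4.29, 5.40 and 5.42 in M0 and at 5.21, 5.15, 5.24 and 4.68 in M2, with the set 4 array lowest in both. Of 17 D-type cyclins and inhibitors of cyclin-dependent kinases 3 were called lower (17.6%, against 8.84% of all genes) and 0 higher. One of those lower was Cdkn1b (p27), which went from values between 2.86 and 3.31 to values between 1.91 and 2.43 (-1.03 ± 0.15). Without set 4, 6 of the 17 were called lower.

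**Figure D4:**
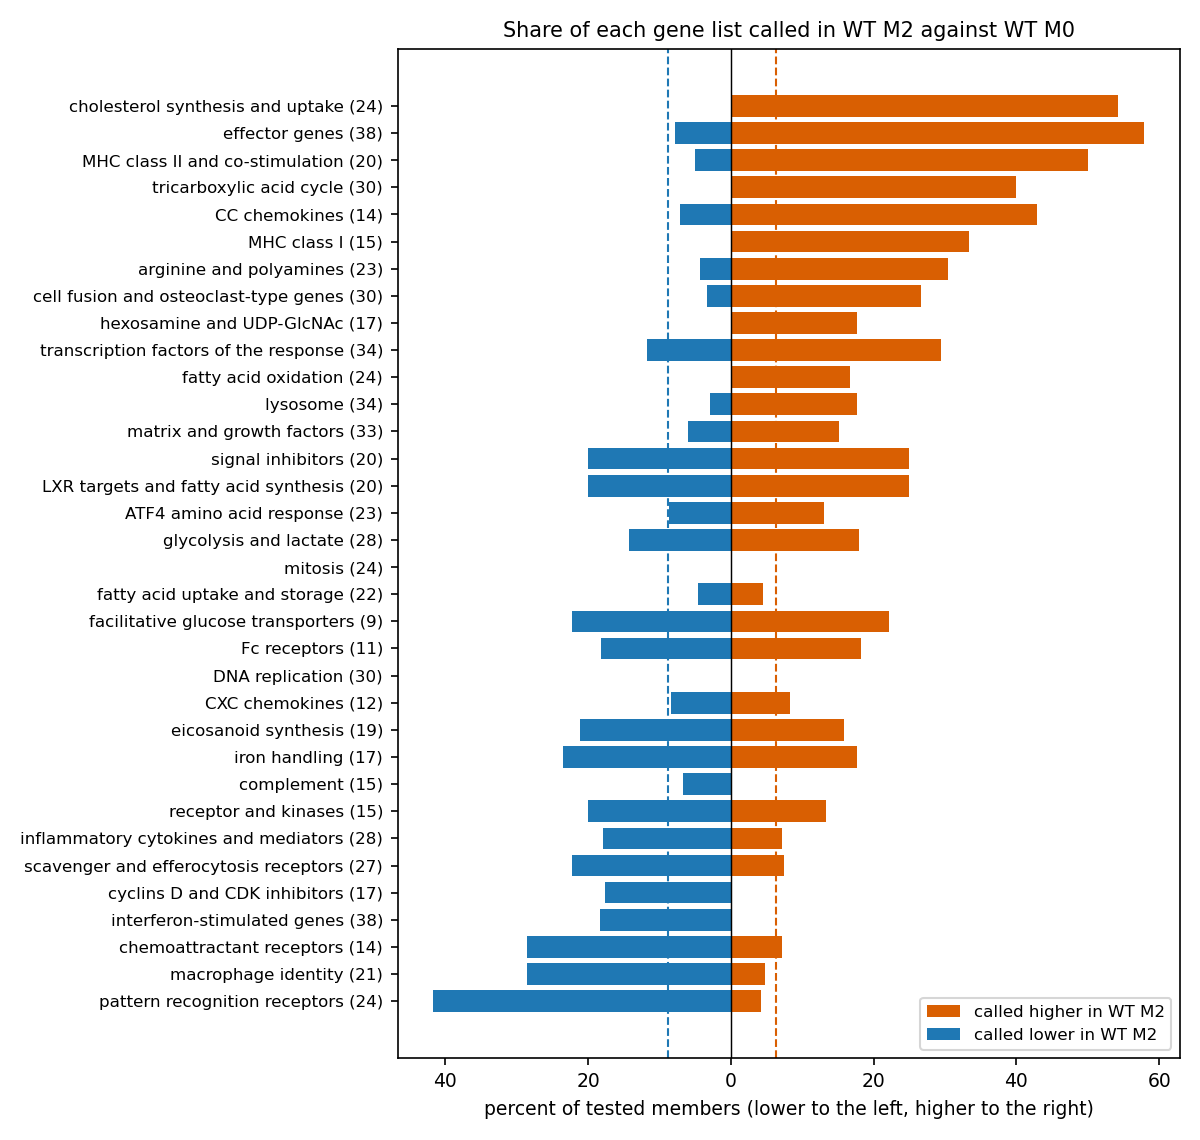
Percent of the tested members of each gene list called higher (orange, to the right) or lower (blue, to the left) in WT M2 against WT M0. The lists of markers of other cells are left out. The number tested stands beside each name and dashed lines mark the 6.27% of all genes called higher and the 8.84% called lower. Effector genes have 57.9% of members higher, cholesterol synthesis 54.2%, and pattern recognition receptors 41.7% lower.

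The same comparison in KO macrophages, which used other arrays, gave 3360 calls (13%), 1763 higher (6.84%) and 1597 lower (6.2%). Of these, 2674 were also called in WT in the same direction, which is 68.7% of the WT calls and 79.6% of the KO calls, and 0 were called in opposite directions. The KO difference had the sign of the WT difference in 3880 of the 3893 genes called in WT (99.7%). Arg1 rose by 7.6 in KO, Socs1 by 5.6, Irf4 by 4.95, Ccl24 by 4.63, Tmem26 by 6.28 and Slc7a2 by 4.83, and Cx3cr1 changed by -4.87. The effector list had 22 members higher and 3 lower in KO, with a median of 1.58.

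The difference between the genotypes in the response was then tested as an interaction. limma called 0 of 25775 genes (0%), with 254 (0.985%) at an unadjusted p under 0.05. Unchanged genes alone would give a share of about 0.05 there, so the test ran on the conservative side. The cause was not tested. Among the hallmark genes it was largest for Retnla, at -6.41 ± 1.99 (limma adjusted p = 1). Its M0 level was -4.19 ± 3.80 in WT and 2.25 ± 1.89 in KO (SD, n = 4), and its M2 level was 7.55 ± 0.10 and 7.57 ± 0.18. Arg1 had an interaction of 1.11 ± 0.53, with M0 levels of 0.87 ± 0.17 in WT and -0.68 ± 1.12 in KO. A test that calls 0 genes does not show that the responses are equal, since the median standard error of a WT difference alone was 0.23. In the KO arrays Slc2a1 was at 2.48 ± 0.51 in M0 and 3.23 ± 0.28 in M2 (SD, n = 4), against 2.80 ± 0.70 and 3.40 ± 0.67 in WT. Whether its probe lies within the deleted exons is not known here, so these values do not check the labels.

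**Figure D5:**
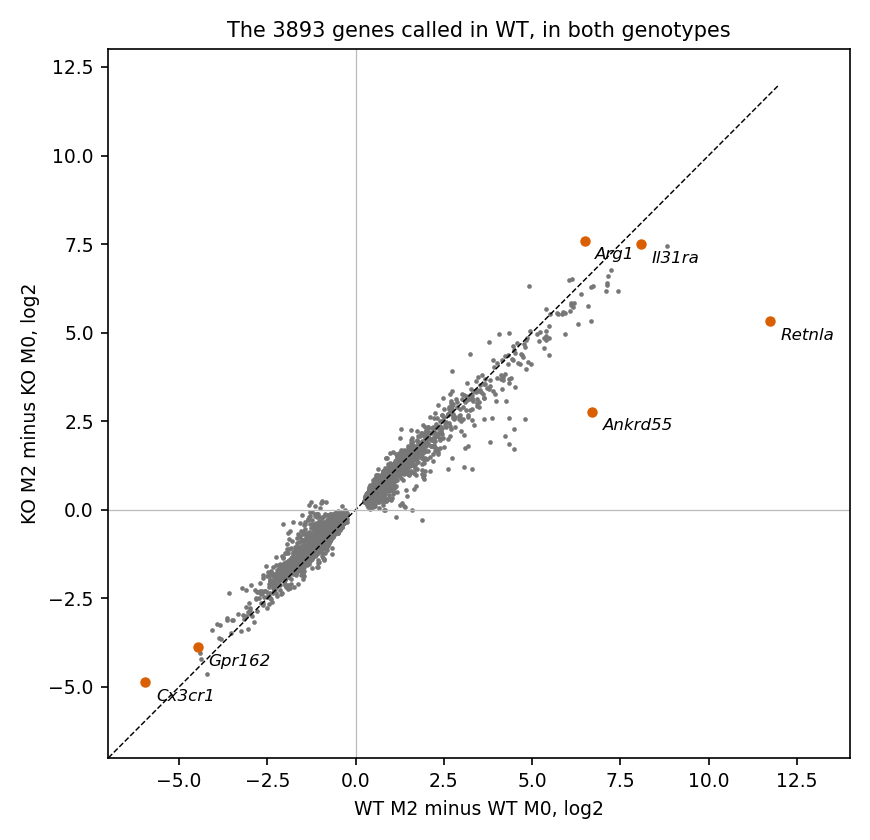
M2 minus M0 difference in KO (log2, vertical axis) against that in WT (log2, horizontal axis) for the 3893 genes called in WT; the dashed line marks equal differences. The points lie along the line, with 99.7% of the same sign, and Retnla, at 11.74 in WT and 5.33 in KO, lies farthest below it among the labelled genes.

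Set directly against the M1 state, M2 macrophages differed in 12337 genes (47.9%), 5138 higher (19.9%) and 7199 lower (27.9%). This comparison shares the M2 arrays with the one above, so values are given side by side. Among the largest rises over M1 were the mitosis genes Pimreg, Cenpf and Pbk and the effector Retnla, all 4 of them well above background on 4 of 4 M2 arrays and on 0 of 4 M1 arrays, so that the size of the difference is not given. Pimreg, Cenpf and Pbk differed from M0 by -0.51, -0.28 and -0.38 and were not called there. Mrc1 was 6.83 higher in M2 than in M1 and Egr2 6.01, and Irf4, with 2 of 4 M1 arrays well above background, 9.04. Mrc1 thus separated M2 from M1, where it stood at -0.10 ± 1.38 (SD, n = 4), and did not pass the test against M0 in the main fit. The spread of the M1 arrays enters the standard error of that test.

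Several genes used as markers of IL-4 activation were also high in M1. Arg1 was at 6.10 ± 0.18 in M1 (SD, n = 4), and M2 exceeded it by 1.26 ± 0.37 (limma adjusted p = 0.00799). Mgl2, on its brighter probe, was at 6.48 ± 0.49 in M1 and Klf4 at 5.27 ± 1.17. Their differences from M2 did not pass the test (0.33 ± 0.24 and 0.14 ± 0.50). The dimmer Mgl2 probe, which gave a larger rise over M0, was not compared with M1, so the Mgl2 result holds for 1 probe only. Socs1 and Tgm2 were higher in M1 than in M2, with M2 minus M1 at -2.19 ± 0.26 and -3.27 ± 0.25. Ciita and Cd74 differed between the 2 states by 0.29 ± 0.36 and -0.22 ± 0.40 and did not pass the test. The largest falls against M1 included Clic5, a chloride channel protein (-10.07), and the interferon-inducible genes Gbp6 (-9.91) and Ifit1bl1 (-9.30). Clic5 was well above background on 3 of 4 M2 arrays and Gbp6 on 1 of 4.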

How the data were processed

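The files are scanner outputs of 24 one-colour Agilent arrays. Per the file headers, the intensity of each spot was read and background-subtracted by Feature Extraction (version 10.7.3.1, protocol GE1_107_Sep09, annotation mm9), as deposited by the authors; the submitters' processing notes name version 9.1. Total RNA was labelled with Cy3, per the labels. Control and outlier-flagged spots were left out, log2 of the processed signal was centred on the array's 75th percentile, and spots of a probe were averaged. Probes well above background on at least 4 of 24 arrays were kept, with the brightest per gene. limma 3.58.1 (R 4.3.3) was fitted to 6 group means, with Benjamini-Hochberg adjustment over 25775 genes. The number of arrays limits the precision. Replicate numbers did not pair M0 with M2 arrays. Arrays of one array set deviated in the same direction (correlations of 0.53, 0.19, 0.23 and 0.73), and the main fit has no term for the set. With the set as a block 6461 genes were called. Of 56605 gene probes, 32994 were named by accession, 10224 by symbol and 520 by synonym, and 12867 kept the file's name. Promoter windows are from RefSeq GRCm38.p6.

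The members and gene lists were chosen with earlier results of these data known. Genes named were 24 chosen ones, the 15 largest called rises and falls with a value on all 8 arrays and no overlap (clones, predicted loci, Y-linked genes and Xist left out), up to 5 called genes each way per list with up to 3 others, and the 6 largest differences from M1. Alternatives were background correction, normalization, filters, probe choice, blocks and arrays left out; fits were tested on simulated data. Some genes of these lists are not reported here by name.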

Additional observations from a re-analysis of the deposited data

Results flagged for a closer look

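In groups of 4 arrays, 30 of 419 groups examined over 214 named genes (7.16%) had 1 array far from the other 3 by Dixon's gap test. About 1 in 20 groups of independent normal values would pass its cutoff. The genes were named from these same arrays and vary together, so the share cannot be set against that rate. WT M0 replicate 2 was the array that stood apart in 15 of the 30 groups and WT M2 replicate 4 in 9, the 2 arrays of set 4. WT M0 replicate 1 was in 3, WT M2 replicate 2 in 2 and WT M0 replicate 4 in 1. A difference between such arrays and the others was not tested further.

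WT M0 replicate 2 stood above the other M0 arrays for the interferon-inducible genes Gbp6 (-1.4, others -6.3 to -5.66) and Ifit1bl1 (-1.41, others -4.25 to -3.84). It also stood above them for the chemokine Ccl8 (0.03, others -3.86 to -3.43), the proton pump subunit Atp6v0d2 (4.92, others 4.2 to 4.27), the lectin Clec4d (7.03, others 6.61 to 6.66), Edn1 (-6.44, others -8.25 to -7.98) and Olr1 (-5.12, others -6.71 to -6.54). It stood below them for the mitosis genes Cenpf (1.16, others 2.57 to 2.76) and Pimreg (2.41, others 3.82 to 3.98). The same held for Cx3cr1 (1.64, others 3.63 to 3.99), Dusp4 (-2.4, others 1.08 to 1.74), Itga8 (-2.86, others -1.47 to -1.39), Klf4 (0.89, others 2.39 to 2.61), Pgm3 (0.1, others 0.6 to 0.69) and Phgdh (-1.01, others 0.92 to 1.22).

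WT M2 replicate 4 stood above the other M2 arrays for Cd74 (7.25, others 6.39 to 6.5), Cxcl16 (3.82, others 2.22 to 2.46), Fcgr1 (3.36, others 1.72 to 1.8) and Jak2 (3.13, others 2.16 to 2.25). The same held for the interferon-stimulated genes Oas2 (2.9, others 0.68 to 0.84) and Xaf1 (1.44, others 0.55 to 0.65), and for Itgb5 (6.27, others 5.8 to 5.88) and Vldlr (-2.81, others -4.0 to -3.8). It stood below them for Cenpf (1.46, others 2.17 to 2.26).

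WT M0 replicate 1 stood apart for Mrc1 (5.59, others 6.12 to 6.16), Dhcr7 (0.5, others 0.25 to 0.27) and Fasn (4.1, others 3.56 to 3.62). WT M0 replicate 4 did so for Adipoq (-3.61, others -8.29 to -7.9). WT M2 replicate 2 stood below the other M2 arrays for Batf3 (-0.38, others 4.38 to 4.7) and Lrp1 (3.56, others 3.85 to 3.9), and it carried 2005 outlier-flagged spots.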

How the results depend on the processing

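Against the main 3893 calls (1615 higher, 2278 lower), median scaling gave 2565 higher and 1310 lower, and only the 8 arrays gave 2078 (866 higher, 1212 lower). A block for the array set gave 6461 (2473 higher, 3988 lower). Without array set 4, 3886 genes were lower. Leaving out 1 WT array at a time gave 2935 to 4532 calls, 1165 to 1789 higher and 1511 to 2743 lower, the lowest count of falls without WT M2 replicate 2 and the highest without WT M2 replicate 4. The other settings kept these counts within 1.5 times, from 3222 without a filter on dim probes to 4456 with the replicate block. Scaling on 25741 probes detected on all arrays, chosen after seeing the data, gave 4000. The interaction with genotype had 0 calls by limma in every alternative that held KO arrays (not only the 8 arrays), and M2 against M1 had 11331 to 12306 with 1 array left out. No value changed sign past the threshold. Causes were not tested.

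Replicate numbers did not pair the samples: deviations of same-numbered M0 and M2 arrays correlated at 0.53, -0.15, 0.25 and -0.31, and those of one array set at 0.53, 0.19, 0.23 and 0.73. The fit with the replicate number as a block called 4456 genes.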

Other observations

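Genes called in the same direction also lay next to each other. With 15994 tested genes placed in the RefSeq order of their chromosomes, 24 runs of at least 4 neighbours were called in the same direction, 11 higher and 13 lower. The genes below that are not named above were chosen after their values were seen, and how many such runs chance gives was not tested. Ankrd55 (at least 72-fold higher), Il6st (2.16), Il31ra (8.10) and Ddx4 (5.94) formed one run of rises, in which Il6st encodes the receptor chain gp130, the partner of many interleukin-6 type receptors. Asgr1 (0.81), Asgr2 (1.5), Mgl2 (2.3) and Clec10a (2.75) are neighbouring genes of galactose-binding lectins. Gatm lay in a run of 5 rises with Slc30a4, a zinc transporter (2.65).

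Runs within gene families included Ear1, Ear10, Ang6 and Ear2, from 1.3 to 5.93, and Rnase6, Rnase2b, Ang2 and Rnase2a, from 1.79 to 6.73. These are ribonucleases with near-identical copies, and their probes may share signal. Among the falls, Ms4a4b (-1.82), Ms4a6c (-1.22) and Ms4a6b (-3.52) lay in one run, and Gpr34 (-2.3) and Gpr82 (at least 15.6-fold lower) in another.

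Il4i1, a secreted oxidase of aromatic amino acids whose name comes from its induction by IL-4, was outside the lists and stood at -0.70 in M0 and 5.40 in M2 on average, a difference of 6.10. This exceeds the 6.07 of Socs1, the last of the 15 largest rises. Il4i1 did not meet their rule of a call, a value on all 8 arrays and no overlap. Which part it missed is not given here.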
